A study of Homo sapiens with 6 samples.

Results

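The MAF transcription factor family was followed through 5 of its genes, MAFA, MAF, MAFF, MAFG and MAFK, in chromatin accessibility data from senescent and non-senescent human beta-like cells. A region of open chromatin was taken as a promoter region of a gene when it overlapped 2 kb on either side of the start of a GENCODE protein-coding transcript of that gene. It was taken as a distal region when it was no promoter region and the coding start nearest to its middle belonged to that gene and lay within 100 kb. By this rule 33 of the 108542 regions measured belonged to the family, 15 at promoters and 18 distal. MAFA had 2 promoter and 9 distal regions, MAF 4 and 7, MAFF 2 and 0, MAFG 4 and 1, and MAFK 3 and 1. The 5 genes lie on different chromosomes, so no region counts for more than 1 of them.

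MAF proteins are basic leucine zipper transcription factors that bind MAF recognition elements, palindromes related to the sites of AP-1 and of the antioxidant response. The large members MAFA and MAF carry an activation domain, and MAFA is a factor of mature beta cells that acts on the insulin gene. The small members MAFF, MAFG and MAFK lack that domain, and regulate transcription as dimers, with each other or with partners such as NRF2 (encoded by NFE2L2) and the BACH proteins.

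The cells were EndoC-βH3, 1 line derived from human fetal pancreas and immortalised with SV40 large T antigen and telomerase transgenes that tamoxifen-activated Cre can cut out. The 3 libraries of the senescent group came from cells kept for 3 weeks in 4-hydroxytamoxifen (4-OHT), and the 3 of the non-senescent group from control cells. Both groups are labelled WT, both carry the same transgenes and Cre before treatment, and each library was made from 100000 cells with a Tn5 transposase, which cuts and tags open DNA (ATAC-seq). Exposure to 4-OHT, loss of the transgenes and senescence came together in 1 group and cannot be told apart, and no source used here says that the 3 libraries of a group were separate cultures, so p-values measure the spread between these libraries.

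The deposited table gives for each region a mean signal, which is the normalised read count averaged over the 6 libraries, and a log2 fold change between the groups with its standard error (SE). None of its columns belongs to 1 library, so neither a library's depth nor its value in a region can be shown, and each value is given with its SE or 95% interval, from 3 against 3 libraries. To show levels, the group mean that follows from the mean signal and the fold change is given as well. It is an approximation that assumes equal weight for each library and a fold change that was not shrunken, and it has no error of its own. The table does not name its numerator, which was read as the senescent group, since both promoter regions of MKI67, a gene of dividing cells, were lower by adjusted p (log2 fold change -0.53, SE 0.097, adjusted p = 4.6e-07, and -1.35, SE 0.30, adjusted p = 5.4e-05). Each direction given here rests on that reading.

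The median log2 fold change was -0.13 over all promoter regions, 0.08 over all distal regions and 0.01 over all regions. Beta cell markers had promoter regions in 7 of 7 genes, with mean signals from 183 to 7894 for the strongest region of each. Of 16 markers of other cell types, 10 had one, and both immune markers, PTPRC and CD3E, had none. The strongest regions of those 10 had mean signals from 43.2 (CELA3A) to 2101 (CPA1), a range that overlapped that of the beta cell markers. The summed group means of these strongest regions went from 12467 to 17970 for the 7 beta cell markers, but from 7458 to 7192 without the INS region. In these strongest regions INS and IAPP were called higher, and the median of the 7 was -0.09. The INS region among them lies downstream of the INS start and is also a promoter region of IGF2 and INS-IGF2. The weaker region over the INS start itself (mean signal 1838) stood at 0.04 with an SE of 0.054 and was not called. ABCC8 (log2 fold change -0.47, adjusted p = 1.0e-06) and SLC2A2 (-0.29, adjusted p = 0.0410) were lower by adjusted p. At SLC2A2 this was the region at -1636 bases, and the weaker one at -206 bases was called higher (0.89, SE 0.14, adjusted p = 8.6e-10). For the other cell types the sums went from 6187 to 5156, and SST, HHEX and SOX9 were called lower. In such bulk samples fewer open cells and less opening per cell cannot be told apart, and the part of these markers in the family's values was not tested.

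Sequences of some of the family's regions and starts are shown first, on the strand of the gene and in hg38, with matches to the motifs named further on in capitals. None is from MAFA, to which most of the regions called changed belonged. In MAFG, the pair of intron regions with the clearest change lie around an internal start of the gene, and the central 300 bases of each are given. The window of the region at +2.7 kb from the canonical start spans chr17:81924899-81925198 on the minus strand, and that of the region at +4.0 kb spans chr17:81923541-81923840 on the same strand.

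MAFG +2.7 kb: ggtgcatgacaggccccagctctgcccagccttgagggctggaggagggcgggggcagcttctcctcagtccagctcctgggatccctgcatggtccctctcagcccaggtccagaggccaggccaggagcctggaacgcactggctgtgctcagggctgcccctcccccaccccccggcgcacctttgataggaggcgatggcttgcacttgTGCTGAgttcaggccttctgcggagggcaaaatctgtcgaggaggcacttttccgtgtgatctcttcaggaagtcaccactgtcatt

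MAFG +4.0 kb: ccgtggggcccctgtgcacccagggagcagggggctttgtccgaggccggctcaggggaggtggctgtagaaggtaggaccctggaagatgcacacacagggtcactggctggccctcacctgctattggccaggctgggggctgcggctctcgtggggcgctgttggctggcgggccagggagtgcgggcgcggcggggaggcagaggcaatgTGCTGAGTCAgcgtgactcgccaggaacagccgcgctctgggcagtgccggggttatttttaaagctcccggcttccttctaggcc

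For MAF, the distal region of highest signal (central 300 bases, chr16:79656642-79656941, minus strand) and the only region called changed (whole, chr16:79510882-79511156, minus strand) are given. The first holds none of the motifs searched and the second holds 2 of them.

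MAF -56.1 kb: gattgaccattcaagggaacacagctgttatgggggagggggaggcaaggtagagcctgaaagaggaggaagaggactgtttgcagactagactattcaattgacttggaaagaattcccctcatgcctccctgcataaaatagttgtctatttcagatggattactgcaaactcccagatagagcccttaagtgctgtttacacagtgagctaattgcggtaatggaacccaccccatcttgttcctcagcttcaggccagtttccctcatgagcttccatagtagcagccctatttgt

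MAF +89.7 kb: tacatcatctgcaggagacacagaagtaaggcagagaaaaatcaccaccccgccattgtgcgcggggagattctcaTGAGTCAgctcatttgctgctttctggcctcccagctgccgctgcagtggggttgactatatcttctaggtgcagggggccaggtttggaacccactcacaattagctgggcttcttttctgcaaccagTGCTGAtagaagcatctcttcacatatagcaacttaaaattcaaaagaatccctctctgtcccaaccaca

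The MAFK promoter region of highest signal (central 300 bases, chr7:1532756-1533055, plus strand) is given because its window holds the AP-1 letters in a gene with little signal.

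MAFK +2.2 kb: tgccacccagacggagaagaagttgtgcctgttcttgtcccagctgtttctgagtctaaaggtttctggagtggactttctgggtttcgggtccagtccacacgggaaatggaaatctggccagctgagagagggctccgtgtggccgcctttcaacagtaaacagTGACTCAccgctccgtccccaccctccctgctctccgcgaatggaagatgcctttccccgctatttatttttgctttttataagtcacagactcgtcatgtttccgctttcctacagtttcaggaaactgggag

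The 250 bases before the canonical starts of MAF (chr16:79600738-79600987, minus strand), MAFG (chr17:81927736-81927985, minus strand) and MAFF (chr22:38201744-38201993, plus strand) come from RefSeq on GRCh38.p14. They are given because the open region over each of these starts stayed within 1.5-fold between the groups, as its 95% interval shows.

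MAF upstream: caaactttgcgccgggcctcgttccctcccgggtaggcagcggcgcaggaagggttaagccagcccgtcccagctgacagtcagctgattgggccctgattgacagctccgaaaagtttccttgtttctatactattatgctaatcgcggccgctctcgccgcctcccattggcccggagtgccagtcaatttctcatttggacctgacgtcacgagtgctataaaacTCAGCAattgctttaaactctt

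MAFG upstream: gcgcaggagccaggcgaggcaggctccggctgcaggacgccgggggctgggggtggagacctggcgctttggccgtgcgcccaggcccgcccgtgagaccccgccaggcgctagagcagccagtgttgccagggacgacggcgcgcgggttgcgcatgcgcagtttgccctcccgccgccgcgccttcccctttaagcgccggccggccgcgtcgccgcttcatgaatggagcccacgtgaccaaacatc

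MAFF upstream: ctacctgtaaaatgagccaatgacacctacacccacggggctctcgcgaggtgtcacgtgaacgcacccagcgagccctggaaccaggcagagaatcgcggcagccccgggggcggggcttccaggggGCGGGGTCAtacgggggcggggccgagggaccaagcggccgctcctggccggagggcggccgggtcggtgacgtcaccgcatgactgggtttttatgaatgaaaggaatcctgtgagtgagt

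3 motifs were searched on both strands in the central 300 bases of each region. TGCTGA, one arm of a MAF recognition element, was in 9 of the 33 family regions (27.3%) and in 25.7% of all 108542 regions. TGANTCA, the AP-1 site, was in 4 (12.1%) against 9.86% of all regions. TGACNNNGC, the core of the antioxidant response element, was in 5 (15.2%) against 13.0%. The shares of the family were thus close to those of all regions for each motif. At promoters the counts were 3, 2 and 3 of 15 in the same order, against 15.9%, 4.51% and 13.6% of all promoter regions, and at distal regions they were 6, 2 and 2 of 18, against 27.9%, 11.1% and 12.8%.

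In the MAFG window at +4.0 kb all 3 motifs overlapped in the run of 10 capitals (chr17:81923617-81923626) with TGCTGA centred at -92 bases from the internal start. The TGCTGA of the window at +2.7 kb was at -1451 bases from the same start. Among the called distal regions, the MAFA region at -24.0 kb held TGANTCA and TGACNNNGC, the MAFA region at -16.2 kb held TGCTGA and the MAF region at +89.7 kb held TGCTGA and TGANTCA, while the other 3 held none of the motifs in the window searched. A match says only that these letters are present.

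The median GC content of its distal regions was 61.5%, against 44.8% for all distal regions, and they held a median of 2.69 CpG per 100 bases against 1.08. At promoters the family had a median GC content of 65.4% against 62.2%. The distal regions of the family were also weaker and shorter, with a median signal of 44.4 and a median width of 378.5 bases, against 76.8 and 490 for all distal regions. Most of these distal regions belong to MAFA and MAF and share their locus, so these medians are descriptions of a few loci.

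A region was called when its adjusted p was under 0.05 and its fold change over 1.5, that is a log2 value beyond 0.585 in either direction. At the family's distal regions accessibility was called higher in senescent cells in 5 of 18 regions (27.8%), 4 of them of MAFA and 1 of MAF, and lower in 1 region of MAFA (5.56%). Among all 88448 distal regions 18.1% were called higher and 10.6% lower. The median log2 fold change of the family's distal regions was 0.39. The 5 regions called higher had mean signals from 22.9 to 89.3, and the 1 called lower had 2222. Among all distal regions with a mean signal under 100, 22.3% were called higher, and 13 of the family's distal regions lay in that range, where the 5 calls were made. Among all distal regions with a mean signal of 100 or more, 13.7% were called lower.

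**Figure D1:**
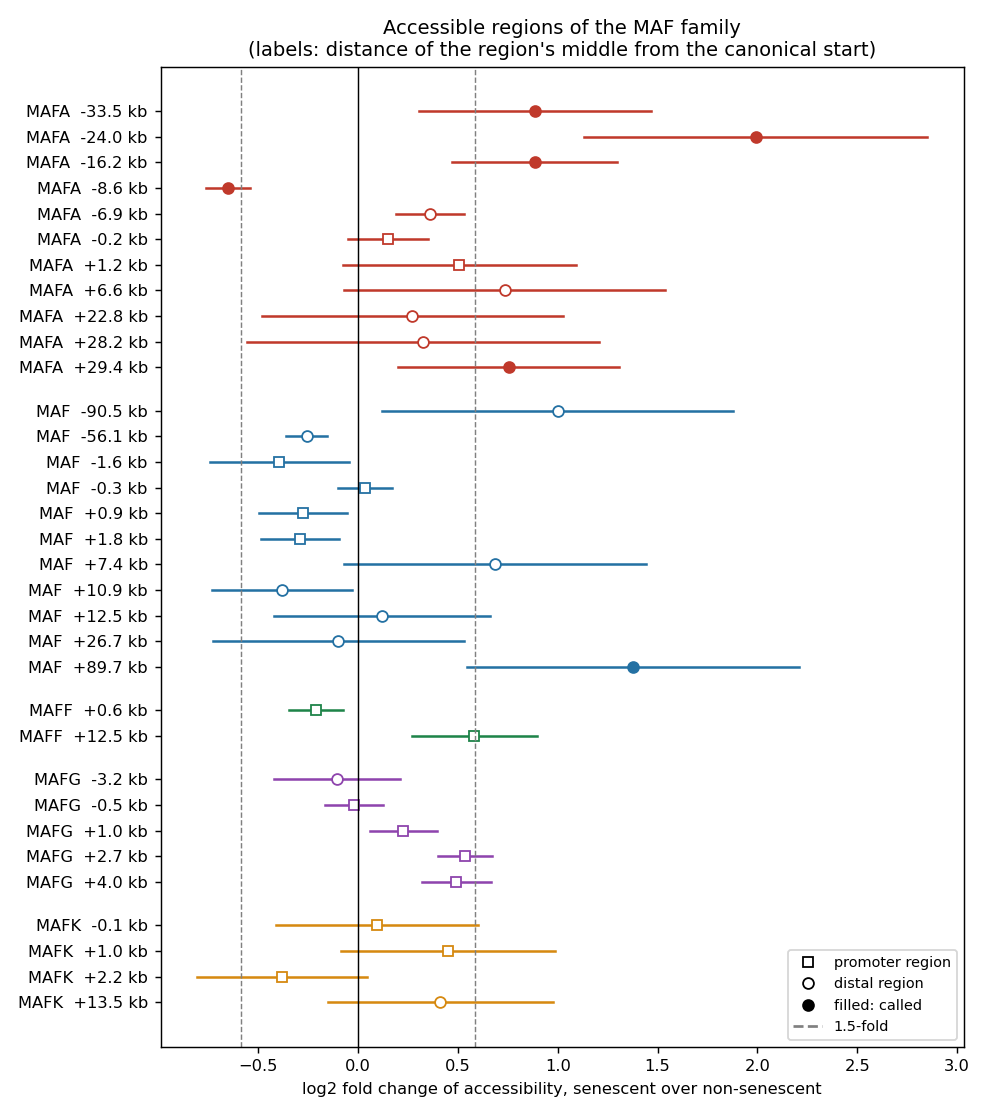
Log2 fold change of accessibility, senescent over non-senescent (horizontal axis), of each of the 33 family regions, in rows ordered along each gene. Squares are promoter regions, circles distal regions, filled points called regions and bars 95% intervals from the deposited SE, with 1.5-fold marked by dashed lines. The 5 filled points on the right have wide bars (SE 0.21 to 0.44), and the 1 on the left, MAFA at -8.6 kb, has an SE of 0.057.

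None of the 15 promoter regions was called in either direction by the authors' DESeq2 test, where 3.56% of all promoter regions were called higher and 9.04% lower. Without the fold limit 4 promoter regions of the family passed the adjusted p as higher and 3 as lower, against 10.2% and 34.7% of all promoter regions. At an unadjusted p under 0.05 there were 4 and 4, and the share of all promoter regions at that threshold is not given, here or further on. The median log2 fold change of the family's promoter regions was 0.10. By their 95% intervals, 10 of the 33 regions lay within 1.5-fold, 22 had intervals that crossed that limit, and 1, MAFA at -24.0 kb, lay beyond it. Most of the family's regions can thus be placed neither inside nor outside a 1.5-fold change.

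MAFA (ENSG00000182759.4, chr8:143428064-143430732, minus strand) had by the rule the most changed regions of the family, in both directions. The rule gives distal regions to the nearest start, and which gene they serve cannot be read from accessibility. Its promoter was open in both groups, with group means of 607 and 674 in the region over the start (chr8:143430673-143431247). There the log2 fold change was 0.15 (SE 0.10, adjusted p = 0.232), with a 95% interval from -0.05 to 0.35 that lay within 1.5-fold. The second promoter region, at +1.2 kb in the coding sequence of exon 1, was weak (mean signal 45.1) and had a log2 fold change of 0.51 with an adjusted p of 0.162.

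The distal region of highest signal at MAFA lay at -8.6 kb (chr8:143438574-143440148), in an intron of the neighbouring gene ZC3H3 with 108 coding bases of it overlapped. Its group means were 2715 and 1729, so that accessibility fell by 0.65 on the log2 scale (SE 0.057, adjusted p = 2.8e-28, 1.57-fold lower). It ranked 466 in mean signal among all 88448 distal regions. Its 95% interval ran from -0.76 to -0.54 and so included changes just under the limit.

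The intergenic region next to it, at -6.9 kb (chr8:143437381-143437885), went the other way. Its group means were 523 and 671, with a log2 fold change of 0.36 (adjusted p = 0.000207, SE 0.087), which stayed under the limit. The middles of these neighbours were less than 2 kb apart, with opposite signs and intervals that did not overlap, though the difference itself was not tested since the table holds no covariance.

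Farther upstream, 3 regions in introns of ZC3H3 were called higher. At -16.2 kb (chr8:143446700-143447178) the group means were 62.7 and 116, and the log2 fold change 0.88 (SE 0.21, adjusted p = 0.000145). At -24.0 kb (chr8:143454685-143454857) they were 9.20 and 36.5, a rise of 1.99 (SE 0.44, adjusted p = 3.8e-05), the greatest in the family and 3.97-fold on the linear scale. At -33.5 kb (chr8:143463949-143464517) they were 28.2 and 52.1, and the log2 fold change 0.88 (SE 0.30, adjusted p = 0.00914).

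Downstream of the gene, the intergenic region at +29.4 kb (chr8:143401129-143401447) was called higher with group means of 33.6 and 56.6 and a log2 fold change of 0.75 (adjusted p = 0.0215, SE 0.28). The other 3 downstream regions, at +6.6, +22.8 and +28.2 kb, had mean signals from 18.5 to 24.5 and log2 fold changes from 0.27 to 0.73, none past the adjusted p, and intervals that crossed the limit. Of the 9 distal regions of MAFA 8 thus had a positive fold change and the remaining one, of highest signal, a negative one.

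The region at -8.6 kb held 72.1% of the distal mean signal of MAFA, and the other 8 distal regions had mean signals from 18.5 to 597. Of the 8 regions with a positive fold change 5 passed the adjusted p, and with the trend on mean signal removed those at +22.8 kb and +28.2 kb stood at -0.05 and -0.06.

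**Figure D2:**
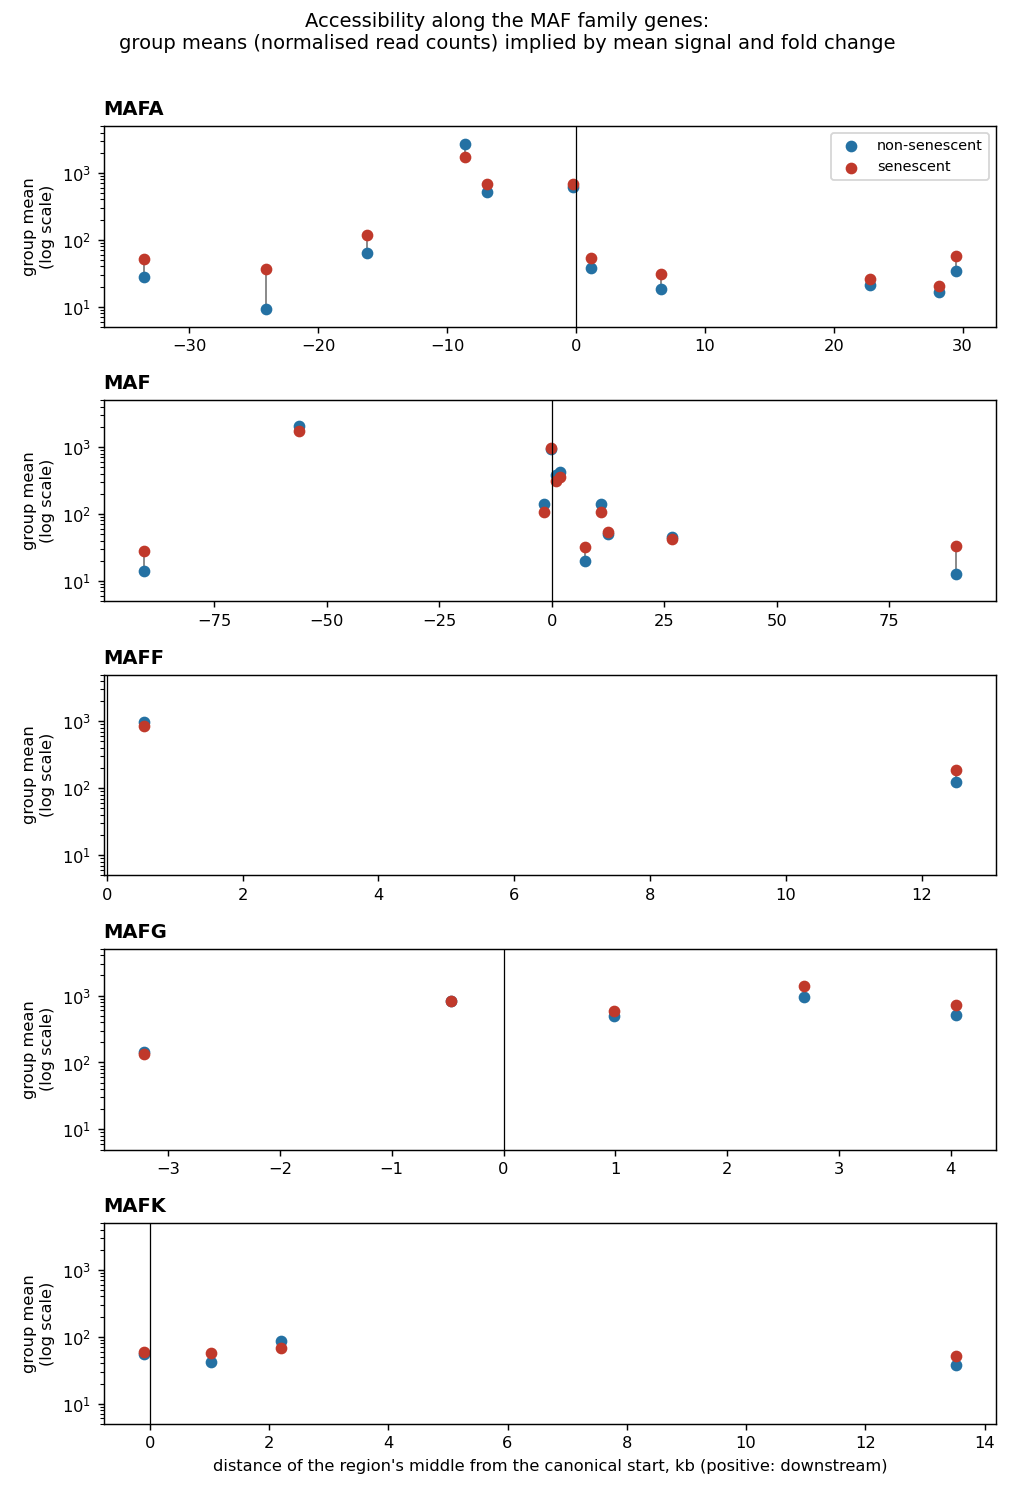
Group means implied by the mean signal and the fold change (vertical log axis, normalised read counts) against the distance of a region's middle from the canonical start in kb, with positive values downstream. 1 panel is given for each gene, blue points are non-senescent and red points senescent cells, each pair is joined by a line, and no error is drawn since the table holds none for a group. At MAFA the tallest pair, 2715 and 1729 at -8.6 kb, has the blue point on top, whereas at MAFK the 4 pairs stay under 100.

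MAF (ENSG00000178573.7, chr16:79593838-79600737, minus strand), also called c-MAF, stayed within 1.5-fold over its start and in its strong distal region. The promoter region over its start (chr16:79600274-79601731) had group means of 950 and 975 and a log2 fold change of 0.04 (adjusted p = 0.702, SE 0.069, 95% interval -0.10 to 0.17). The regions at +0.9 kb and +1.8 kb, both over coding sequence of exon 1, were lower past the adjusted p and within 1.5-fold, with log2 fold changes of -0.28 (adjusted p = 0.0369) and -0.29 (adjusted p = 0.0106). The fourth promoter region, at -1.6 kb, had -0.39 and an adjusted p of 0.0597.

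The distal region of highest signal at MAF, the intergenic one at -56.1 kb whose sequence is given above (chr16:79656363-79657220), was strong in both groups. It ranked 711 among all distal regions, with group means of 2050 and 1714, a log2 fold change of -0.26 (adjusted p = 9.6e-06, SE 0.053) and an interval from -0.36 to -0.15. The fall was within the 1.5-fold limit. It held 86.7% of the distal mean signal of MAF.

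The called region of MAF lay at +89.7 kb (chr16:79510882-79511156), in an intron of a long noncoding RNA (ENSG00000261472). It was weak, with group means of 12.8 and 33.2, a log2 fold change of 1.37 (adjusted p = 0.00422, SE 0.42) and an interval from 0.54 to 2.21. The farthest region on the other side, at -90.5 kb in an intron of LINC01229, had a log2 fold change of 1.00 (SE 0.45) and an adjusted p of 0.0589. The other 4 distal regions of MAF had log2 fold changes from -0.38 to 0.69, none past the adjusted p. No other protein-coding gene starts within 100 kb of MAF, and all 11 regions in that span were its own by the rule.

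Among the small members, MAFG (ENSG00000197063.11, chr17:81918270-81927735, minus strand) was higher by adjusted p in senescent cells in 3 regions inside the gene, while the region over its canonical start did not pass. The difference between these regions was not tested. The region over that start (chr17:81927675-81928729), which also covers exon 1 of the long noncoding RNA MILIP, had group means of 832 and 820 and a log2 fold change of -0.02 (adjusted p = 0.839, SE 0.074, 95% interval -0.17 to 0.12). At +1.0 kb (chr17:81926453-81927038) the group means were 497 and 581 and the log2 fold change 0.23 (SE 0.086, adjusted p = 0.0236).

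The pair of intron regions deeper in MAFG, shown above by sequence, had the smallest adjusted p among the family's promoter regions. At +2.7 kb (chr17:81924734-81925363) the group means were 946 and 1372, with a log2 fold change of 0.54 (adjusted p = 1.4e-13, SE 0.068), and at +4.0 kb (chr17:81923364-81924017) they were 512 and 720, with 0.49 (SE 0.089, adjusted p = 3.2e-07). These are 1.45-fold and 1.41-fold, under the limit of 1.5, so neither was called. Both counted as promoter regions through the start of a shorter coding transcript, at -1517 and -159 bases from it, and not through the canonical start. The 1 distal region, at -3.2 kb, had a log2 fold change of -0.11 (adjusted p = 0.625).

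MAFF (ENSG00000185022.12, chr22:38201994-38216507, plus strand) has 6 coding starts and had 2 open regions, with opposite signs. The region over the canonical start (chr22:38201556-38203534) had group means of 970 and 838 and a log2 fold change of -0.21 (adjusted p = 0.00711, SE 0.069), within 1.5-fold. The other lay over coding exon 3 at +12.5 kb (chr22:38214067-38214912), 955 bases past an internal start, and is shared with a promoter of the neighbouring gene PLA2G6. Its group means were 123 and 184 and its log2 fold change 0.58 (SE 0.16, adjusted p = 0.00111), which at 1.497-fold was just under the limit. Which of the pair of genes that second region serves cannot be read from accessibility.

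MAFK (ENSG00000198517.10, chr7:1530702-1543043, plus strand) was weakly open in both groups. Its 3 promoter regions, at -0.1, +1.0 and +2.2 kb, had mean signals of 57.5, 49.4 and 77.3, at percentiles 11.1, 9.20 and 14.9 of all promoter regions. Their log2 fold changes were 0.10 (SE 0.26, adjusted p = 0.795), 0.45 (SE 0.27, adjusted p = 0.177) and -0.38 (SE 0.22, adjusted p = 0.148). The distal region at +13.5 kb, in the last exon of TMEM184A, had a mean signal of 44.5 and a log2 fold change of 0.41 (adjusted p = 0.251, SE 0.29). All 4 intervals crossed 1.5-fold on 1 side, downward at +2.2 kb and upward at the others, so a change of that size in that direction is not excluded.

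Per kb of region, the mean signal over the canonical start was 1114 at MAFA, 783 at MAFG, 660 at MAF, 457 at MAFF and 159 at MAFK. Neighbours in this order cannot be compared beyond their spread, since the table holds no spread of a level. The strong distal regions exceeded these values, with 1411 per kb at MAFA and 2193 at MAF. So did the MAFA region at -6.9 kb with 1182 and the MAFG region at +2.7 kb with 1839. A value per kb depends on width, and the regions over the starts ranged from 362 bases at MAFK to 1979 at MAFF.

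**Figure D3:**
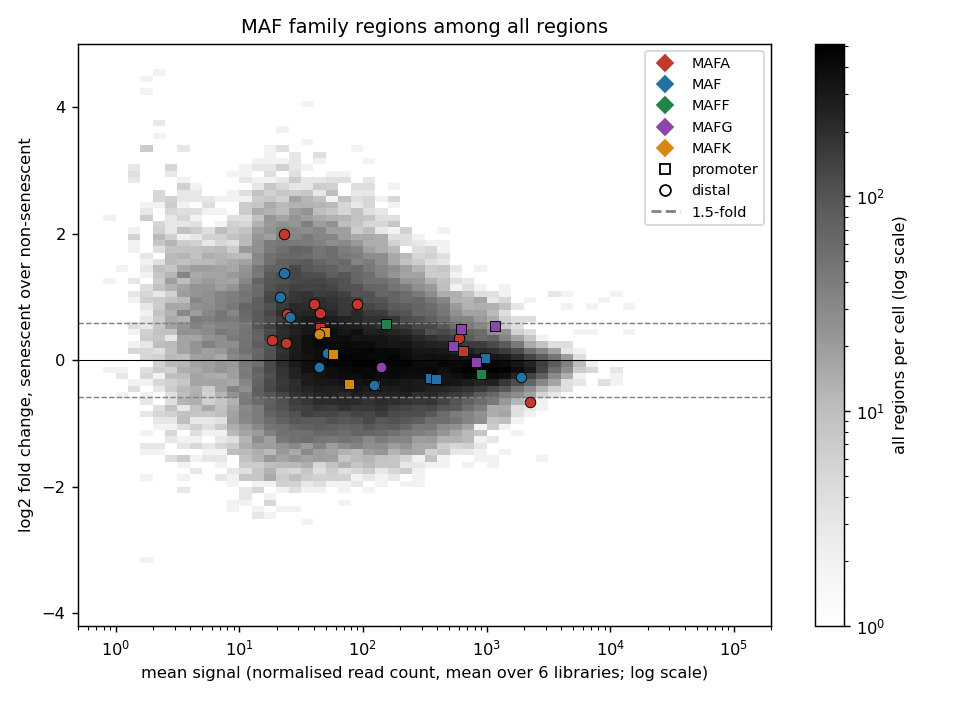
Log2 fold change (vertical axis, senescent over non-senescent) against mean signal (horizontal log axis, normalised read count) of the 33 family regions, coloured by gene, over all 108542 regions in grey, where darker cells hold more regions. Squares are promoter regions, circles distal regions and dashed lines 1.5-fold. The family regions above the upper line have mean signals under 100, and the MAFA region at -8.6 kb is alone below the lower line.

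Fold changes over all regions moved with signal, and this trend is given beside the family's values. The running median of the log2 fold change over all regions was 0.33 at the signal of the MAFA region at -24.0 kb, 0.21 at that of the MAFA region at -33.5 kb and -0.11 at that of the MAFA region at -8.6 kb. With the trend removed, the -24.0 kb region stood at 1.66, the -16.2 kb region at 0.83 and the MAF region at +89.7 kb at 1.05, each still called. The regions at -33.5 kb (0.67, adjusted p = 0.0571) and +29.4 kb (0.58, adjusted p = 0.0909) of MAFA were then no longer called, and that at -8.6 kb, with -0.54, fell inside the fold limit. Over the canonical starts, the MAFA region then stood at 0.29 (adjusted p = 0.0146) and the MAFF region at -0.10 (adjusted p = 0.243), so that the first came to pass and the second ceased to pass the adjusted p. The intron regions of MAFG at +2.7 and +4.0 kb then stood at 0.65 and 0.63, and the MAFF region at +12.5 kb at 0.62, past the limit. With a trend on GC content removed instead, the MAFA region over the start stood at 0.11 and did not pass the adjusted p (0.400).

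Regions within 100 kb of a canonical start that the rule gave to other genes were counted as well. Around MAFA 15 such regions belonged to other genes, with 2 called higher and 1 lower. Around MAFF there were 12 with 0 higher and 2 lower, around MAFG 28 with 2 and 5, and around MAFK 10 with 0 and 1. These counts were not split into promoter and distal regions. Of all promoter regions 3.56% were called higher and 9.04% lower, and of all distal regions 18.1% and 10.6%.

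The genes that MAF proteins work with and act on were followed in the same way, on lists chosen by their known roles. Partners of the small MAF proteins (NFE2, its relatives NFE2L1, NFE2L2 and NFE2L3, BACH1 and BACH2), together with the NRF2 inhibitor KEAP1, had 12 promoter regions. An NFE2 region among them is shared with COPZ1 and an NFE2L2 region with AGPS. Of the 12 regions 1 was called higher and 0 lower, where 3.56% and 9.04% of all promoter regions were. The called one was a weak region near BACH1 (mean signal 65.8, log2 fold change 1.22, SE 0.25, adjusted p = 6.2e-06). Without the fold limit 2 of these promoter regions were higher and 4 lower by adjusted p, where 10.2% and 34.7% of all promoter regions were. The counts were the same at an unadjusted p under 0.05. Of their 37 distal regions 8 (21.6%) were called higher and 6 (16.2%) lower, against 18.1% and 10.6% of all distal regions, and the largest rise (1.43, SE 0.46) and fall (-1.29, SE 0.37) were both at BACH2, which encodes a repressor that pairs with small MAF proteins. The median log2 fold change was -0.12 at the promoters and 0.04 at the distal regions.

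Genes with antioxidant response elements, 11 targets of NRF2 and small MAF dimers that include the glutathione synthesis genes GCLC and GCLM, had no called promoter region among 17, where 3.56% of all promoter regions were called higher and 9.04% lower. At an unadjusted p under 0.05, 2 of these were higher and 4 lower by the authors' DESeq2 test. The same counts passed the adjusted p without a fold limit, where 10.2% and 34.7% of all promoter regions did. Their median log2 fold change was -0.13. The promoter of NQO1, a detoxifying enzyme, had -0.08 (SE 0.070, adjusted p = 0.349) and that of HMOX1, heme oxygenase, -0.12 (SE 0.13, adjusted p = 0.495). Of the 52 distal regions 7 (13.5%) were called higher and 5 (9.62%) lower, against the same 18.1% and 10.6%. The largest rise was a very weak region of GCLC (mean signal 12.5, log2 fold change 2.27, SE 0.68) and the largest fall a region of GCLM (-1.09, SE 0.29).

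The 9 genes known to respond to MAFA in beta cells, among them insulin, the glucose transporter SLC2A2 and the GLP-1 receptor, had 15 promoter regions, with 3 (20%) called higher and 1 (6.67%) lower, against 3.56% and 9.04% of all promoter regions. The largest rise was in a broad region downstream of the INS start (chr11:2153680-2159212, mean signal 7894, also a promoter region of IGF2 and INS-IGF2), with 1.11 (SE 0.037, adjusted p = 5.2e-189). The other called rises were the region next to it (chr11:2159868-2160146, 0.59, SE 0.11), shared with the same genes, and the SLC2A2 region at -206 bases (0.89, SE 0.14). The 3 called rises thus came from the INS and SLC2A2 loci alone. The region over the INS start itself (chr11:2160844-2161520, mean signal 1838) had 0.04 (SE 0.054, adjusted p = 0.601). PCSK1, which encodes a proinsulin convertase, had the called fall, -0.80 (SE 0.060, adjusted p = 2.0e-37). Of their 54 distal regions 14 (25.9%) were called higher and 4 (7.41%) lower, against 18.1% and 10.6% of all distal regions, with a median log2 fold change of -0.04. The largest rise (2.03, SE 0.37) and fall (-1.03, SE 0.36) were both at SLC2A2. GLP1R, picked out after its values were seen, had all 6 of its distal regions called higher, with log2 fold changes from 0.69 to 1.08, while its promoter had -0.58 (SE 0.17, adjusted p = 0.00219), just inside the limit. These lists are set beside the family by counts and medians alone.

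**Figure D4:**
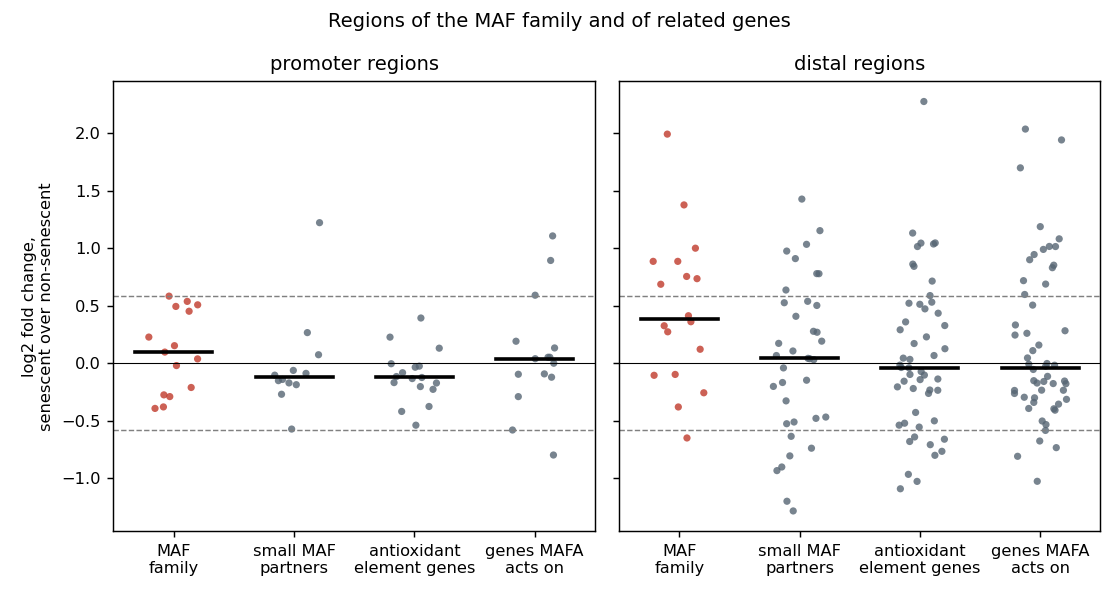
Log2 fold change (vertical axis, senescent over non-senescent) of each region of the MAF family (red) and of 3 lists of related genes (grey), at promoters on the left and distal regions on the right, with a black bar at the median and dashed lines at 1.5-fold. The family's medians are 0.10 and 0.39, and those of the related lists lie between -0.13 and 0.04. The spread along the horizontal axis within a group carries no value.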

How the data were processed

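EndoC-βH3 cells were profiled by ATAC-seq, and the labels gave 3 senescent and 3 non-senescent libraries. By their methods section, the authors trimmed paired-end reads (Trim Galore), aligned them to hg38 (Bowtie2), removed mitochondrial reads and duplicates, shifted reads for the transposase, called peaks (MACS2), counted reads under the union of peaks and compared groups with DESeq2. Tool versions are not given in the sources used here. The mean signal in the deposited table is the authors' normalised read count over all libraries. The log2 fold change and its SE, the score (Wald statistic), the p-value and the adjusted p-value are those of the authors' model. The table holds nothing else, so these columns of the authors' own comparison were used as deposited, and the edgeR test planned for counts could not be run. The score equalled the fold change over its SE, and the adjusted p-value the Benjamini-Hochberg adjustment over all 108542 regions, with 0 regions lacking one. Depth per library is not in the table, so precision is given as the SE.

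Starts were read as counted from 0 and are printed counted from 1. Start sites were those of GENCODE 44, and regions called had an adjusted p under 0.05 and a fold change over 1.5. Trends were running medians over 1000 regions on each side. Named regions were, for each gene, the promoter and the distal region of highest mean signal and every called region, and the others named beside them were chosen with their values seen. Of related lists the largest called rise and fall were named, and the other genes named there were chosen with their values seen. Members, lists and rules were chosen with earlier results of these data known. Sequences came from hg38 and from the RefSeq table (GRCh38.p14), in which 3 of the 5 genes were matched by symbol. Python 3.11.15, pandas 2.3.3, scipy 1.17.1 and pysam 0.24.0 were used, and the steps were tested on simulated data.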

Additional observations from a re-analysis of the deposited data

How the results depend on the processing

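No paired analysis was possible because the deposited table gives libraries no columns of their own, although replicate numbers 1 to 3 stand in the labels of each group. For the same reason the tests on counts with edgeR and DESeq2, a filter on low counts, the replicate block and leaving out each replicate were not run. The 5 of 18 distal regions of the family called higher became 1 under a Wald test against the 1.5-fold limit and 1 among regions of mean signal 50 or more. They became 3 once the signal trend was removed, and 3 of only 10 regions assigned with start sites of all annotated genes. Keeping only mean signals of 50 or more left fewer than 18 regions to count. It removed the MAFA regions at -33.5, -24.0 and +29.4 kb and the MAF region at +89.7 kb (mean signals 22.9 to 45.1). The share called among all distal regions at that signal is not given here. The 1 distal region called lower became 2 with no fold limit and 0 under that Wald test and with either the signal trend or the trend on GC content removed, where MAFA at -8.6 kb stood at -0.54 and -0.49. The 0 promoter regions called became 4 higher and 3 lower with no fold limit, and 3 higher with either trend removed, where MAFG at +2.7 kb stood at 0.65 and 0.70. The MAFG distal region at -3.2 kb changed sign with the GC trend removed (-0.11 to 0.0535, adjusted p = 0.824).

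Of the related genes, 29 of 143 distal regions called higher became 7 under the Wald test. They became 16 among regions of mean signal 50 or more, which number fewer than 143. With all start sites they became 14, of only 60 regions assigned. The 15 of 143 called lower became 30 with no fold limit, 1 under the Wald test and 24 with the GC trend removed. They became 7 of 92 regions assigned within 50 kb and 5 of 60 with all start sites. The 4 of 44 promoter regions called higher became 9 with no fold limit and 1 under the Wald test. In windows of 1 and 0.5 kb they became 2 of 36 and 1 of 34 regions assigned. The 1 called lower became 11 with no fold limit and 2 with centring on the median or the GC trend removed. Of all promoter regions 10.2% were higher and 34.7% lower with no fold limit. The cause of these shifts was not tested, beyond what each limit itself removes. In all, 61 of these counts under an alternative stayed within 1.5 times the value reported and 27 did not. Of the named regions' values 77 kept their direction and their call, 10 lost and 5 gained a call, and 1 changed sign. Named regions of mean signal under 50 had no value when only 50 or more was kept, so their removal is not among these losses. A stricter p or the Wald test can only lose calls, and dropping the fold limit can only add them. Some named regions kept their call and still crossed the adjusted p alone. MAFF over its canonical start went from 0.00711 as deposited to 0.243 and 0.477 with the signal or GC trend removed. MAFA over its start went from 0.232 to 0.0146 with the signal trend removed, but to 0.400 with the GC trend removed. MAF over its start went from 0.702 to 0.0447 with the GC trend removed, but to 0.0676 with the signal trend removed. Of the 18 distal regions 13 had a mean signal under 100, and the median SE was 0.29.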
